A study of Mus musculus with 16 samples.

Results

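The libraries labelled MycER OHT Y27 were compared with those labelled YAP2S OHT, 2 libraries each and 4 of the 16 RNA-seq libraries of the series. The pair was selected on the RPKM of Bex1, Wnt7a and Fgfbp1, whose levels in these libraries go against their labels. MycER OHT Y27 stands for mouse embryonic fibroblasts with MycER, in which Myc is joined to the hormone-binding domain of an oestrogen receptor, given 4-hydroxytamoxifen (OHT, 400 nM), which switches MycER on, and Y27632 (Y27, 50 µM), which blocks the kinase ROCK. YAP2S OHT stands for MycER fibroblasts that also express YAP2S, read here as the study's activated YAP mutant with 2 serines changed to alanine, given OHT and no Y27. All groups carry MycER, and the study kept such cells in low serum. They were set against libraries without OHT, YAP2S against MycER and YAP2S Y27 against MycER Y27, 2 libraries a group. The labels do not say if replicates came from separate cultures or how the mutant was brought in, so p-values measure only the spread between these libraries, which may be technical.

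YAP is a co-activator without a DNA-binding domain of its own, and it acts through the TEAD transcription factors. The kinases LATS1 and LATS2 of the Hippo pathway phosphorylate YAP on serines, which keeps it in the cytoplasm and marks it for breakdown, and a YAP that lacks these serines escapes that control. ROCK drives actomyosin contraction, and in fibroblasts with relaxed actomyosin YAP leaves the nucleus and targets such as Ctgf and Ankrd1 lose expression.

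The labels of the pair are in doubt. Bex1, a small protein of the brain-expressed X-linked family, had 7.64 and 7.49 RPKM in the libraries labelled MycER OHT Y27, against 1.01 and 0.47 RPKM in those labelled YAP2S OHT. RPKM scales a gene's reads to its length in kilobases and to the library's depth in M (mega) reads. Without OHT, Bex1 was high in the YAP2S population instead, at 16 and 16.1 RPKM in YAP2S libraries, against 0.0 and 0.49 RPKM in MycER libraries. The groups labelled with OHT and the groups labelled without it thus put the high level in opposite populations.

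Wnt7a, a Wnt ligand, had 2.86 and 2.04 RPKM in the libraries labelled MycER OHT Y27, against 0.175 and 0.288 RPKM in those labelled YAP2S OHT. Fgfbp1, a secreted carrier of fibroblast growth factors, had 4.28 and 7.57 RPKM in the libraries labelled MycER OHT Y27, against 0.617 and 0.351 RPKM in those labelled YAP2S OHT. Neither gene's groups overlapped, and the values rest on 17 to 33 reads for each of the 3 genes in each MycER OHT Y27 library, against 4 to 11 reads in the YAP2S OHT ones. In the MycER OHT Y27 libraries all 3 genes lay below the YAP2S ones, in which Wnt7a had 8.52 and 7.45 RPKM and Fgfbp1 12.6 and 10.8 RPKM. These 3 genes chose the pair, so their differences are given with no test. If the OHT labels were exchanged, the pair would read as the effect of the YAP mutant in cells with OHT and without Y27, and if they were not, it mixes population and inhibitor. Whether labels were exchanged was not tested, and directions are given by the labels as they stand.

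**Figure D1:**
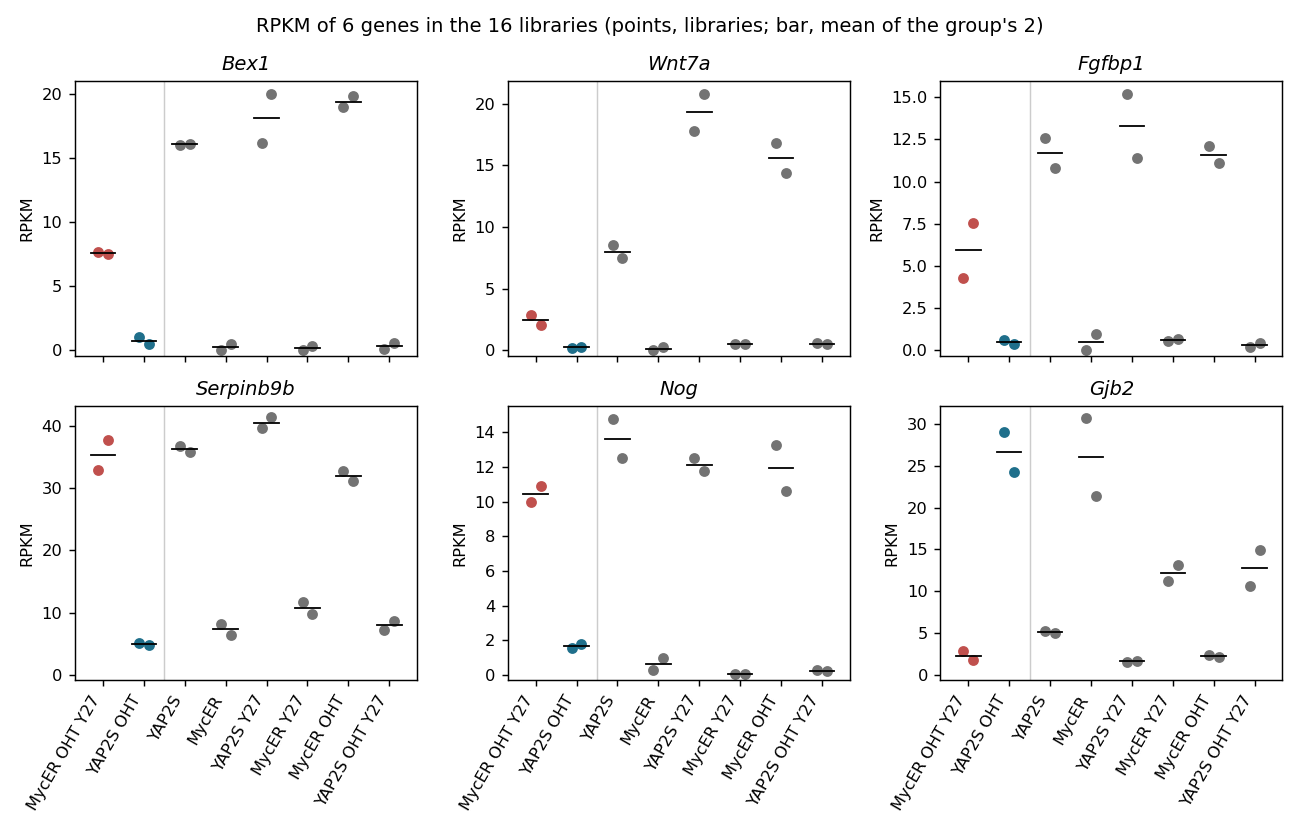
RPKM (linear axes) of Bex1, Wnt7a and Fgfbp1, which chose the pair, and of Serpinb9b, Nog and Gjb2 in the 2 libraries (points) and their mean (bar) of each of the 8 labelled groups. The first 5 genes are high in the groups labelled MycER OHT Y27, YAP2S, YAP2S Y27 and MycER OHT, and Gjb2 is low in those 4 groups.

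Depth differed within the pair. The MycER OHT Y27 libraries held 3.63 and 2.62 M reads, against 12.58 and 9.82 M in the YAP2S OHT ones, with 1.76 to 15.71 M over the series. The highest RPKM of a library was lower at greater depth, at 391.5 and 532.2 in the MycER OHT Y27 libraries, against 141.0 and 172.1 in the YAP2S OHT ones. Values above about 100 RPKM may thus not be comparable between deep and shallow libraries, which was not tested. In the comparison without OHT the deep group was on top, with 14.74 and 13.05 M reads in YAP2S libraries, against 1.76 and 7.07 M in MycER ones. The fibroblast genes Vim and Col1a1 were abundant in every library, with Vim at 98.2 RPKM or more and Col1a1 at 93.3 RPKM or more, while Thy1 and Pdgfra, which mark many fibroblasts, stayed at or below 0.385 RPKM. Of the defining genes of other cell types, Ptprc of blood cells and Cdh5 of endothelium were at or below 0.109 RPKM in all 16 libraries. Pecam1 and Kdr of endothelium reached 0.421 and 0.878 RPKM. Of epithelial genes, Cdh1 reached 1.83 RPKM, while Epcam and Krt14 stayed at or below 0.0987 RPKM. Summed over the lists of other cell types, RPKM came to 1.61 to 2.57 for endothelial, 1.36 to 2.09 for muscle, 9.24 to 11.4 for macrophage and 6.75 to 7.93 for adipocyte genes in MycER OHT Y27 libraries, against 1.61 to 1.92, 1.82 to 2.38, 11.1 to 14.6 and 11.3 to 12.6 in YAP2S OHT ones. The larger sums were 146.0 to 153.0 for neural and glial, 60.2 to 72.4 for epithelial and 68.3 to 77.7 for cartilage and bone genes in MycER OHT Y27 libraries, against 164.0 to 165.0, 74.9 to 81.6 and 100 to 102 in YAP2S OHT ones. The sums for adipocyte, neural, epithelial and cartilage genes were thus lower in MycER OHT Y27 libraries as deposited, where the median log2 difference of all genes was -0.22. After quantile normalization the medians of tested members were -0.58 for adipocyte and -0.27 for epithelial genes, but 0.27 for neural and 0.30 for cartilage genes. Krt19 made up most of the epithelial sum, at 58.4 and 71.4 RPKM in MycER OHT Y27 libraries. Fewer cells of these types are not shown, and their part in the results was not tested.

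Promoters of genes picked by hand are shown, since TEAD factors bind the letters GGAATG. These promoters belong to Bex1, which chose the pair, Serpinb9b and Gjb2, at the ends of its named differences, and Arhgap36, among the 12 highest. Each runs 5′ to 3′ on the gene's strand, from 250 bases before the transcription start to 50 after it, from RefSeq on build GRCm38.p6, at chrX:136215464-136215763 for Bex1 (minus strand), chrX:49463695-49463994 for Arhgap36 (plus strand, 1 of its 2 starts), chr13:33027164-33027463 for Serpinb9b (plus strand) and chr14:57104653-57104952 for Gjb2 (minus strand). Capitals mark GGAATG on either strand and CACGTG, the E-box that Myc binds, which reads the same on both.
Bex1: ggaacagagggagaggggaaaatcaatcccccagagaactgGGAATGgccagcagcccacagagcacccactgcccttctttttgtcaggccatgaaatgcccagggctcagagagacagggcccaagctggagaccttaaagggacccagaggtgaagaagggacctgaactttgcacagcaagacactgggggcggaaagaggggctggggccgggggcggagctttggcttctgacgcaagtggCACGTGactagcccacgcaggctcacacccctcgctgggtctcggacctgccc
Arhgap36: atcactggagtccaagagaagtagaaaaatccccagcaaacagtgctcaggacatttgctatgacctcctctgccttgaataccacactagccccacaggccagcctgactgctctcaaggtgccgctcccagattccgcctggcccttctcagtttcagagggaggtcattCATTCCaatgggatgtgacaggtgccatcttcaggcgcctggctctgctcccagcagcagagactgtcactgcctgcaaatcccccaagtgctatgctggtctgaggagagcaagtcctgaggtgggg
Serpinb9b: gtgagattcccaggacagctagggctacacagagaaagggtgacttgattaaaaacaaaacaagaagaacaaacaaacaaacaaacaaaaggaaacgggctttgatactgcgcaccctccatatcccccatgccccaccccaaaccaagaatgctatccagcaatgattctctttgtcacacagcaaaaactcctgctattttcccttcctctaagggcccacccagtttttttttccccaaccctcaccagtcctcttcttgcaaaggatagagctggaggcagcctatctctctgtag
Gjb2: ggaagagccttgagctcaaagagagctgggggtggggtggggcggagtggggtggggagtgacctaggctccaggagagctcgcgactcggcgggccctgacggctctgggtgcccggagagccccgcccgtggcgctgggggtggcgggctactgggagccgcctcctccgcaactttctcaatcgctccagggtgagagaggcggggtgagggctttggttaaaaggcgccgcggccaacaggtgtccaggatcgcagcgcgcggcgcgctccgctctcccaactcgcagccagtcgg
Bex1 held both motifs and Arhgap36 held GGAATG, while the windows of Serpinb9b and Gjb2 held neither. Nor did those of Wnt7a, Fgfbp1 and the other start of Arhgap36, which are not printed. GGAATG was in 14.7% of all 32851 promoters of the table and in 12.5% of the 12088 promoters of tested genes. It was in 23 of 82 promoters (28.0%) of the genes higher in YAP2S described next, a group with 68 of 97 genes in the table, and in 2 of 18 promoters (11.1%) of the genes lower in YAP2S, with 18 of 34 genes matched. CACGTG was in 7.15% of all promoters, in 9.8% of those of tested genes, in 10 of the 82 (12.2%) and in 1 of the 18 (5.56%). A match is a description of the letters and not a bound site.

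Genes that told the populations apart without OHT told this pair apart too. They were chosen on the 8 libraries without OHT, as genes with an adjusted p under 0.05 and a log2 difference above 1 in size, in the same direction, in both YAP2S against MycER and YAP2S Y27 against MycER Y27. The pair shares no library with those comparisons. Of 97 genes higher in YAP2S, 92 were higher in the libraries labelled MycER OHT Y27 than in those labelled YAP2S OHT, 67 were called higher and 0 were called lower, at an adjusted p under 0.05 by limma over all 13028 genes tested. Of 34 genes lower in YAP2S, 32 were lower in the libraries labelled MycER OHT Y27, 27 were called lower and 0 higher. Over all genes tested, 13.6% were called higher and 15.4% lower in the pair, 29.0% together. The median log2 difference in the pair was 0.93 for the 97 genes and -1.27 for the 34, beside 0.01 for all genes. The 97 include Bex1, Wnt7a and Fgfbp1, and without them 89 of 94 were higher and 64 were called higher.

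**Figure D2:**
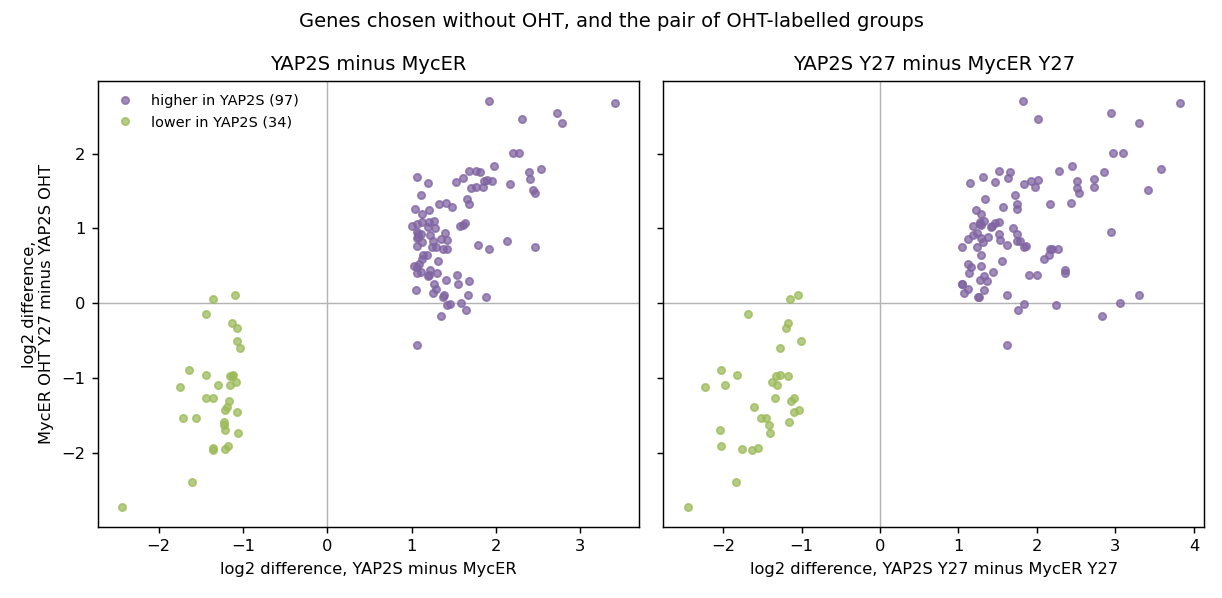
Log2 differences of the 97 genes higher and the 34 genes lower in YAP2S (1 point a gene), with MycER OHT Y27 minus YAP2S OHT on the vertical axis, and YAP2S minus MycER (left) or YAP2S Y27 minus MycER Y27 (right) on the horizontal axis. The genes were chosen by the horizontal values, and 92 of the 97 lie above 0 and 32 of the 34 below 0 on the vertical axis.

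Each gene was placed between the mean of MycER libraries, set to 0, and the mean of YAP2S libraries, set to 1. The 94 genes higher in YAP2S, markers left out, had a median position of 0.71 in the libraries labelled MycER OHT Y27 (quartiles 0.48 and 0.94), against 0.02 in those labelled YAP2S OHT (quartiles -0.12 and 0.19). The 34 genes lower in YAP2S had a median position of 1.04 in the libraries labelled MycER OHT Y27 (quartiles 0.88 and 1.32), against 0.12 in those labelled YAP2S OHT (quartiles -0.01 and 0.30). In the libraries labelled MycER OHT the medians were 0.87 for the 94 genes and 1.04 for the 34. The groups labelled MycER OHT Y27 and MycER OHT thus both sat below 1 for the higher genes and slightly above it for the lower ones, a description with no test. The libraries that set 0 and 1 also served to choose the genes, so no conclusion is drawn from a position short of 1.

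Serpinb9b, a member of the serpin family of protease inhibitors, stood at the top of the pair. It had 33.0 and 37.8 RPKM in MycER OHT Y27 libraries, against 5.11 and 4.85 RPKM in YAP2S OHT libraries. The groups did not overlap, and the log2 difference was 2.70 ± 0.19 (SE here and below, adjusted p = 2.11e-05 by limma). Serpinb9b had 36.8 and 35.8 RPKM in YAP2S libraries, against 8.23 and 6.45 RPKM in MycER libraries, so that the pair's high group sat at the YAP2S level.

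Nog encodes noggin, which binds bone morphogenetic proteins outside the cell and blocks them. Nog had 10.0 and 10.9 RPKM in MycER OHT Y27 libraries, against 1.57 and 1.80 RPKM in YAP2S OHT libraries. The difference of 2.41 ± 0.15 (adjusted p = 9.54e-06) stood beside one of 2.78 ± 0.15 between YAP2S and MycER. Arhgap36, of a family of GTPase-activating proteins, had 79.4 and 76.6 RPKM in MycER OHT Y27 libraries, against 29.8 and 26.9 RPKM in YAP2S OHT libraries (1.29 ± 0.10, adjusted p = 3.87e-05). Its level in YAP2S libraries was 67.9 and 70.3 RPKM, against 22.9 and 27.8 RPKM in MycER libraries. For Nog and Arhgap36 the pair's difference did not differ detectably from that of YAP2S against MycER, by -0.37 ± 0.21 and -0.20 ± 0.14 (adjusted p = 0.222 and 0.345).

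Wnt7b, a Wnt ligand close to Wnt7a, had 2.25 and 1.99 RPKM in MycER OHT Y27 libraries, against 0.396 and 0.231 RPKM in YAP2S OHT libraries (1.54 ± 0.14, adjusted p = 6.41e-05). Nnat, an imprinted gene for the small membrane protein neuronatin, had 8.35 and 7.19 RPKM in MycER OHT Y27 libraries, against 4.44 and 4.18 RPKM in YAP2S OHT libraries (1.09 ± 0.15, adjusted p = 0.000598). Both genes were also higher in YAP2S than in MycER libraries, by 1.70 and 1.13 on the log2 scale. Their levels in the MycER OHT Y27 libraries lay under those of YAP2S libraries, in which Wnt7b had 5.07 and 3.97 RPKM and Nnat 17.5 and 15.6 RPKM.

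Hmgn5, a nucleosome-binding protein that loosens chromatin, had 22.7 and 20.4 RPKM in MycER OHT Y27 libraries, against 4.04 and 5.44 RPKM in YAP2S OHT libraries (2.20 ± 0.33, adjusted p = 0.000971). Arhgap11a, a GTPase-activating protein of dividing cells, had 21.8 and 19.8 RPKM in MycER OHT Y27 libraries, against 9.17 and 7.81 RPKM in YAP2S OHT libraries (1.43 ± 0.24, adjusted p = 0.00173). Without OHT, Hmgn5 had 9.53 and 16.4 RPKM in YAP2S libraries, against 4.76 and 4.59 RPKM in MycER libraries, and the difference of 0.83 ± 0.33 did not pass the test (adjusted p = 0.103). In YAP2S Y27 against MycER Y27, Hmgn5 was higher by 1.10 ± 0.33 (adjusted p = 0.0335).

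Gjb2, which encodes the gap junction protein connexin 26, stood at the bottom of the pair. It had 2.87 and 1.75 RPKM in MycER OHT Y27 libraries, against 29.0 and 24.2 RPKM in YAP2S OHT libraries. The groups did not overlap, and the log2 difference was -2.72 ± 0.20 (adjusted p = 2.78e-05). Gjb2 had 5.27 and 5.0 RPKM in YAP2S libraries, against 30.7 and 21.4 RPKM in MycER libraries, a difference of -2.43 ± 0.20. It was also lower with Y27, at 11.2 and 13.2 RPKM in MycER Y27 libraries. The log2 difference of MycER Y27 against MycER was -1.11 ± 0.20 (adjusted p = 0.00313).

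Mt2, a metallothionein that binds zinc and copper, had 4.96 and 4.12 RPKM in MycER OHT Y27 libraries, against 25.7 and 30.6 RPKM in YAP2S OHT libraries (-1.94 ± 0.12, adjusted p = 1.04e-05). Cotl1, a coactosin-like actin-binding protein, had 4.20 and 3.26 RPKM in MycER OHT Y27 libraries, against 24.5 and 21.1 RPKM in YAP2S OHT libraries (-1.90 ± 0.17, adjusted p = 5.82e-05). Both genes were also lower in YAP2S Y27 than in MycER Y27 libraries, by log2 differences of -1.56 and -0.90. Mt2 had 11.6 and 9.09 RPKM in YAP2S libraries, against 20.4 and 22.1 RPKM in MycER libraries, while Cotl1 had 15.2 and 13.8 RPKM in YAP2S libraries, against 12.5 and 20.2 RPKM in MycER ones. The pair's difference was larger in size than that of YAP2S against MycER for Cotl1, by -1.38 ± 0.24 (adjusted p = 0.00354), and for Mt2, by -0.58 ± 0.17 (adjusted p = 0.0354).

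Ephb6, an Eph receptor without kinase activity, had 5.06 and 5.07 RPKM in MycER OHT Y27 libraries, against 20.8 and 21.5 RPKM in YAP2S OHT libraries (-1.43 ± 0.12, adjusted p = 4.22e-05). In libraries without OHT it had 18.4 and 19.3 RPKM in YAP2S, against 13.3 and 16.8 RPKM in MycER, and the pair differed from that by -1.38 ± 0.16 (adjusted p = 0.00212). In YAP2S Y27 against MycER Y27 it was lower by a log2 difference of -0.62 ± 0.12 (adjusted p = 0.00307), and the pair was not tested against that.

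Some other genes of the low end encode secreted or matrix proteins. Postn, the matrix protein periostin, had 10.6 and 8.80 RPKM in MycER OHT Y27 libraries, against 35.9 and 41.5 RPKM in YAP2S OHT libraries (-1.46 ± 0.14, adjusted p = 9.05e-05). Tnfrsf11b, the decoy receptor osteoprotegerin, had 14.6 and 7.31 RPKM in MycER OHT Y27 libraries, against 42.0 and 47.6 RPKM in YAP2S OHT libraries (-1.59 ± 0.23, adjusted p = 0.000745). Col2a1, the collagen chain of cartilage, had 6.07 and 4.91 RPKM in MycER OHT Y27 libraries, against 31.4 and 32.8 RPKM in YAP2S OHT libraries (-1.90 ± 0.17, adjusted p = 6.26e-05). All 3 were also lower in YAP2S than in MycER libraries, by 0.78 to 1.23 on the log2 scale. In MycER Y27 against MycER, Col2a1 was lower too, by a log2 difference of -1.11 ± 0.17 (adjusted p = 0.0011). Postn was higher there by 0.52 ± 0.14 (adjusted p = 0.025), and Tnfrsf11b did not pass (-0.45 ± 0.23, adjusted p = 0.194). Lrrc17 was lower there, at -1.58 ± 0.26 (adjusted p = 0.00147), and Ifi27 and Prr7, also of the low end, did not pass. Lrrc17, Ifi27, an interferon-induced gene, and Prr7 lay between -1.40 and -1.46 in the pair, and the call of Prr7 was lost without replicate 1 of MycER OHT Y27 or either YAP2S OHT library, at -1.32 to -1.44.

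**Figure D3:**
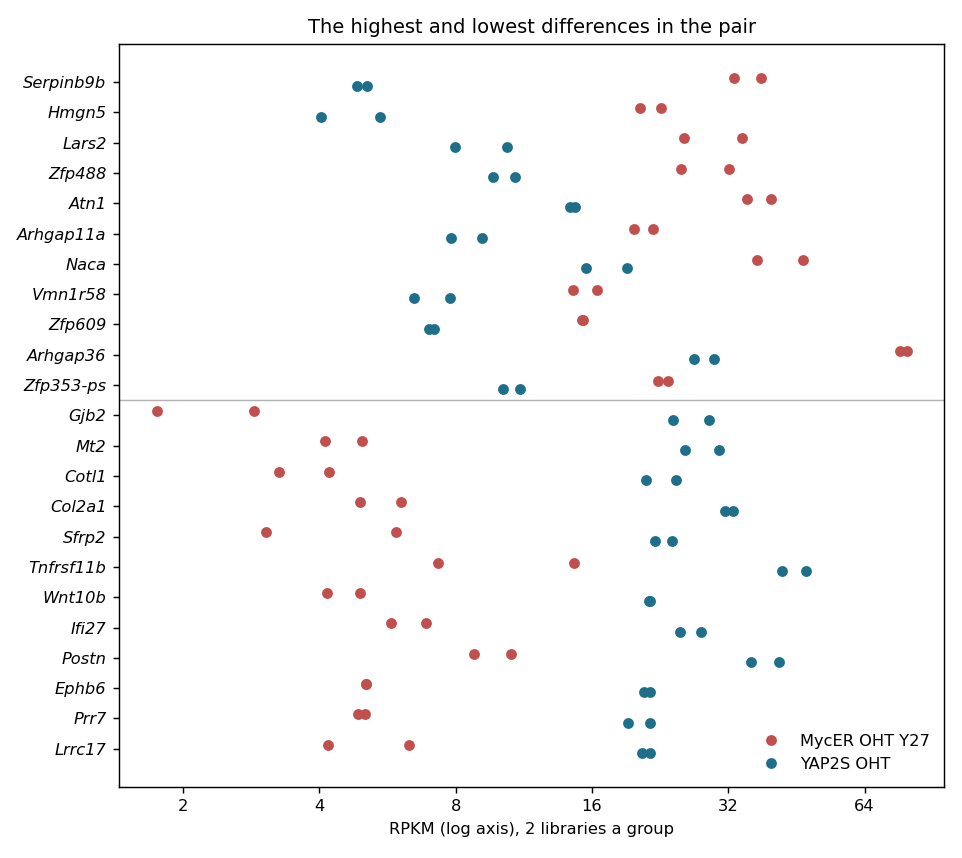
RPKM (log axis) in the 2 libraries labelled MycER OHT Y27 and the 2 labelled YAP2S OHT for 11 of the 12 highest (top) and the 12 lowest (bottom) log2 differences among genes with an adjusted p under 0.05, no overlap between groups and a mean of 10 RPKM or more. Serpinb9b and Hmgn5 lie farthest apart at the top, and Gjb2 at the bottom, from 1.75 to 29.0 RPKM.

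Some genes at the top of the pair were higher in the shallower group of both comparisons. Lars2, a mitochondrial leucyl-tRNA synthetase, had 25.5 and 34.4 RPKM in MycER OHT Y27 libraries, against 7.97 and 10.4 RPKM in YAP2S OHT libraries (1.75 ± 0.41, adjusted p = 0.00889). Without OHT it had 6.79 and 7.55 RPKM in YAP2S libraries, against 48.0 and 13.8 RPKM in MycER libraries, so that its highest level was in the shallowest library of the series. Naca, a chaperone of nascent chains, Zfp488, Vmn1r58 and the pseudogene Zfp353-ps were higher in the pair by 1.27 to 1.56 and lower in YAP2S than in MycER libraries by 1.08 to 1.53. Naca has near-identical copies, so reads may be shared among them. Atn1 and Zfp609 were higher in the pair by 1.44 and 1.30 and did not pass the test in YAP2S against MycER. Their highest levels, 47.2 and 21.7 RPKM, were in replicate 1 of YAP2S OHT Y27, a library of 9.37 M reads. The calls of Lars2 (1.53), Atn1 (1.38) and Zfp609 (1.25) were lost without replicate 1 of YAP2S OHT. Those of Lars2 (1.55) and Atn1 (1.36) were also lost without replicate 2 of MycER OHT Y27. The part of depth in these differences was not tested.

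Base composition moved with the pair as well. Across 12522 genes with a transcript GC share, Spearman's rank correlation between GC and the pair's log2 difference was -0.37, beside 0.19 for YAP2S against MycER. Genes share libraries, so these are descriptions. The pair's median log2 difference was 0.16 over the 3131 genes with the lowest GC and -0.23 over the 3131 with the highest. With each library's deviations corrected for GC, 1420 genes were called higher and 1832 lower in the pair, beside 1767 and 2010 without the correction. With the values as deposited, before quantile normalization, the median of all genes was -0.22, and 1044 genes were called higher and 3886 lower, a share of 21.2% higher beside 46.8%. Leaving out any 1 of the 4 libraries gave 613 to 1092 genes higher and 883 to 1430 lower, the fewest without replicate 1 of YAP2S OHT. The part of GC and scaling in single differences was not tested, beyond the corrected values given beside them.

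The genes of mitosis were higher in the libraries labelled MycER OHT Y27. Of 34 tested genes of G2 and mitosis, 22 were called higher and 0 lower, with a median of 0.58 beside 0.01 for all genes, and with values as deposited 13 and 0. Over all genes tested, 13.6% were called higher and 15.4% lower, the background for every list below as well. Cenpf, a kinetochore protein, had 13.5 and 11.8 RPKM in MycER OHT Y27 libraries, against 4.42 and 4.17 RPKM in YAP2S OHT libraries (1.69 ± 0.18, adjusted p = 0.000173). Cenpe, a kinesin that moves chromosomes to the spindle's middle, had 23.0 and 17.4 RPKM in MycER OHT Y27 libraries, against 10.6 and 8.66 RPKM in YAP2S OHT libraries (1.23 ± 0.16, adjusted p = 0.000443). In both genes the groups did not overlap. Kif23 and Kif20a, kinesins of cytokinesis, were higher by 1.01 ± 0.12 and 0.67 ± 0.08 (adjusted p = 0.000328 and 0.000355).

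The same list was called higher in 16 genes and lower in 0 in YAP2S against MycER, where 15.8% of all genes were called, and in 23 and 0 in YAP2S Y27 against MycER Y27, where 20.9% were. Its median transcript GC was 46.4%, beside 49.7% for all genes, and with the GC correction 21 genes of the list were called higher and 0 lower in the pair. Of 45 genes of DNA replication, 9 were called higher and 0 lower, with a median of 0.14. Rrm1, a subunit of ribonucleotide reductase, had 70.0 and 79.6 RPKM in MycER OHT Y27 libraries, against 44.5 and 46.8 RPKM in YAP2S OHT libraries (0.57 ± 0.10, adjusted p = 0.00244). Tyms, thymidylate synthase, and the polymerase subunits Pola1 and Pole were higher by 0.49 to 0.71. Pola1 and Pole did not pass as deposited (0.43 and 0.24), and Pole did not pass with limma's voom test on recovered reads (0.15, adjusted p = 0.394). As deposited, the replication genes gave 4 higher and 5 lower, so that their direction as a group rests on the scaling.

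Inhibitors of the cell cycle and genes of quiescence were mostly lower or not called, with 1 higher and 11 lower of 26 and a median of -0.31. With voom, limma's test on the reads recovered from the RPKM, 0 were higher and 5 lower. Cdkn1c, an imprinted inhibitor of cyclin-dependent kinases, had 1.13 and 0.982 RPKM in MycER OHT Y27 libraries, against 3.52 and 3.83 RPKM in YAP2S OHT libraries (-0.99 ± 0.12, adjusted p = 0.000386). Pik3ip1, an inhibitor of PI3 kinase, had 5.73 and 3.97 RPKM in MycER OHT Y27 libraries, against 14.2 and 16.1 RPKM in YAP2S OHT libraries (-1.05 ± 0.15, adjusted p = 0.000891). Sesn1, a stress-responsive sestrin, was lower by a log2 difference of -0.49 ± 0.09 (adjusted p = 0.00225).

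Immediate early genes, which respond within minutes to serum and other stimuli, were lower. Of 24 tested, 15 were called lower and 0 higher, with a median of -0.43, and with voom 8 and 0. Ier3 had 31.1 and 31.2 RPKM in MycER OHT Y27 libraries, against 64.7 and 68.4 RPKM in YAP2S OHT libraries (-0.93 ± 0.12, adjusted p = 0.00041). Atf3, a stress-induced transcription factor, had 8.34 and 10.7 RPKM in MycER OHT Y27 libraries, against 23.6 and 21.9 RPKM in YAP2S OHT libraries (-0.77 ± 0.16, adjusted p = 0.00517), a call lost at -0.56 without replicate 1 of MycER OHT Y27. Neither gene's groups overlapped. In YAP2S against MycER the list had 1 gene higher and 1 lower, and Ier3 differed between the 2 comparisons by -0.97 ± 0.17 (adjusted p = 0.00354). The list's median GC was 54.4%, and with the GC correction 10 genes were called lower and 0 higher, Junb no longer among them at -0.20 (adjusted p = 0.199).

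Targets and brakes of ERK signalling pointed the same way. Of 20 tested genes of the FGF pathway, Fgfbp1 left out, 6 were called lower and 0 higher, with a median of -0.24, and with values as deposited 10 and 0. The shares over all genes were 15.4% lower and 13.6% higher. Dusp6, a phosphatase of ERK, had 30.9 and 33.3 RPKM in MycER OHT Y27 libraries, against 57.9 and 59.7 RPKM in YAP2S OHT libraries (-0.69 ± 0.08, adjusted p = 0.000247). Etv5, an ETS factor, was lower by a log2 difference of -0.61 ± 0.10 (adjusted p = 0.00141). Spry1 and Spry2, feedback inhibitors, had differences of -0.84 ± 0.21 and -0.79 ± 0.18 (adjusted p = 0.0114 and 0.00765). Both calls were lost without replicate 1 of YAP2S OHT, at -0.79 and -0.75. That of Spry1 was also lost without replicate 1 of MycER OHT Y27, at -0.75, and that of Spry2 without replicate 2, at -0.70.

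**Figure D4:**
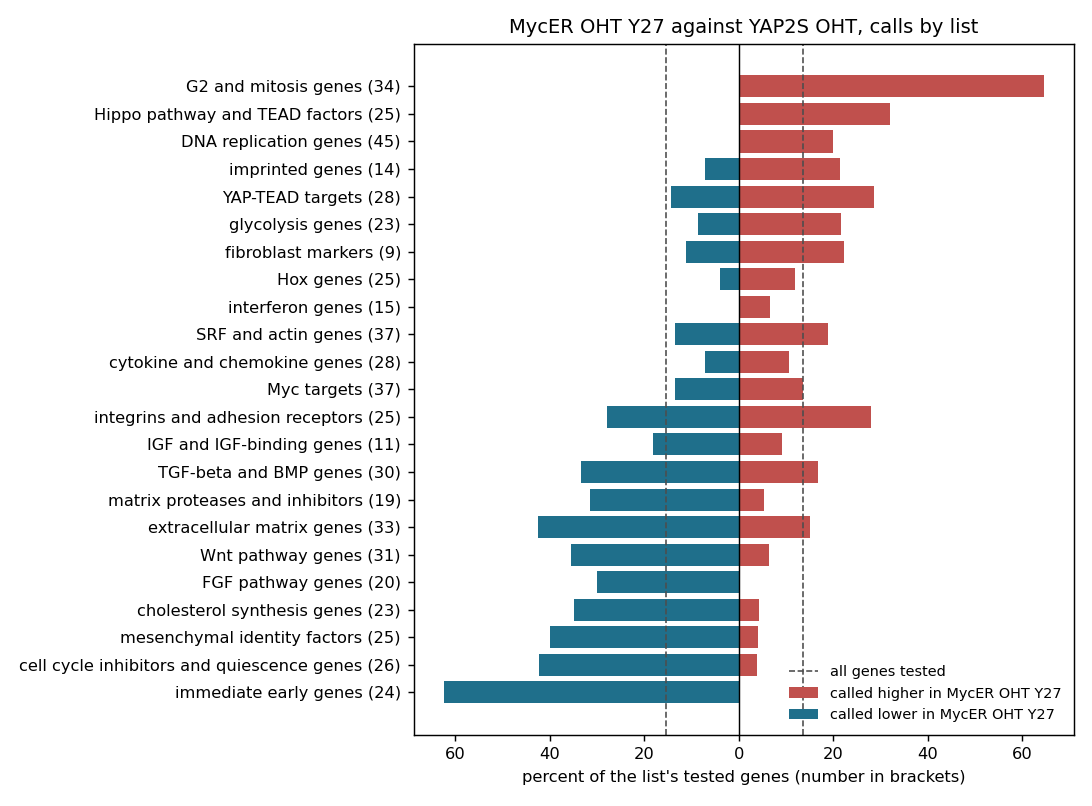
Percent of each list's tested genes called higher (right) or lower (left) in MycER OHT Y27 than in YAP2S OHT libraries, for lists with 9 or more tested genes, Bex1, Wnt7a and Fgfbp1 left out. Broken lines mark all genes tested, 13.6% higher and 15.4% lower, and the mitosis list (22 of 34 higher) and the immediate early list (15 of 24 lower) lie at the ends.

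YAP and its partners were examined next. Yap1 had 25.4 and 22.8 RPKM in MycER OHT Y27 libraries, against 23.0 and 20.8 RPKM in YAP2S OHT libraries, with overlap (0.39 ± 0.16, adjusted p = 0.0871), so that the mouse Yap1 count does not set the groups apart, and the species of the mutant is not given by the labels. Of 25 genes of the Hippo pathway and TEAD factors, 8 were called higher and 0 lower, with a median of 0.23. Tead1 had 46.3 and 46.0 RPKM in MycER OHT Y27 libraries, against 22.4 and 21.6 RPKM in YAP2S OHT libraries (1.11 ± 0.25, adjusted p = 0.00684). Tead4, its relative, was higher by 0.71 ± 0.14 (adjusted p = 0.00372), and Vgll4, which competes with YAP for TEAD, by 0.60 ± 0.12 (adjusted p = 0.00473). Mob1b, a co-activator of LATS kinases, differed by 0.53 ± 0.11 (adjusted p = 0.00538), a call lost without replicate 1 of YAP2S OHT (0.45) and with the GC correction (adjusted p = 0.0815). With voom the list had 4 genes higher and 1 lower and a median of 0.01. As deposited, 2 genes of the list were higher and 3 lower, and Tead4, Vgll4 and Mob1b did not pass.

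The 28 tested YAP-TEAD targets were split, with 8 higher, 4 lower (near the 15.4% of all genes) and a median of 0.16, and with voom 5 higher and 2 lower. In YAP2S Y27 against MycER Y27, 21 of them were called higher and 2 lower, and in YAP2S against MycER 5 and 1. Birc5, the survival factor survivin, had 17.8 and 17.9 RPKM in MycER OHT Y27 libraries, against 15.3 and 13.8 RPKM in YAP2S OHT libraries (0.59 ± 0.10, adjusted p = 0.0018). Rbms3, an RNA-binding protein, differed by 0.42 ± 0.08 (adjusted p = 0.0041). Neither Birc5 nor Rbms3 passed as deposited, and Rbms3 did not pass with voom either (0.05, adjusted p = 0.734).

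The 4 lower members were Foxf2, Fjx1, Cyr61 and Gadd45b, a stress-response gene (-0.35). Foxf2, a forkhead factor of mesenchyme, had 4.66 and 5.16 RPKM in MycER OHT Y27 libraries, against 16.4 and 13.1 RPKM in YAP2S OHT libraries (-0.99 ± 0.14, adjusted p = 0.000738). Fjx1, a homologue of the fly kinase four-jointed, had 16.7 and 19.8 RPKM in MycER OHT Y27 libraries, against 40.6 and 40.7 RPKM in YAP2S OHT libraries (-0.79 ± 0.12, adjusted p = 0.00116). Neither Foxf2 nor Fjx1 had overlapping groups.

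The abundant targets did not show the level of inhibitor-treated MycER cells. Ctgf, a secreted matricellular protein, had 145.0 and 155.0 RPKM in the libraries labelled MycER OHT Y27, against 103.0 and 118.0 RPKM in those labelled YAP2S OHT. In libraries without OHT, Ctgf had 11.3 and 14.0 RPKM in MycER Y27, against 171.0 and 139.0 RPKM in MycER. Both groups of the pair were thus far above MycER Y27, and the low level was found in the libraries labelled YAP2S OHT Y27, at 17.8 and 16 RPKM. Ankrd1, a muscle-type ankyrin repeat protein, had 143.0 and 162.0 RPKM in MycER OHT Y27 libraries, against 90.7 and 98.1 RPKM in YAP2S OHT libraries, while it had 25.9 and 29.9 RPKM in MycER Y27 libraries, against 163.0 and 125.0 RPKM in MycER libraries. Within the pair the scaled log2 differences were -0.28 ± 0.12 for Ctgf (adjusted p = 0.104) and 0.03 ± 0.14 for Ankrd1 (adjusted p = 0.88). As deposited they were 0.43 and 0.68, both past the test, so that no direction between the 2 groups is given for levels this high. For Cyr61, at 248.0 and 303.0 RPKM in MycER OHT Y27 libraries against 136.0 and 163.0 RPKM in YAP2S OHT libraries, the difference was -0.27 ± 0.06 (adjusted p = 0.00839) and turned to 0.87 as deposited. Its call was lost without replicate 2 of MycER OHT Y27 (-0.24) or either YAP2S OHT library (-0.27 each).

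The same was asked of genes with a response to Y27 in MycER libraries, a set added after seeing the data. MycER Y27 against MycER gave 422 genes with an adjusted p under 0.05 and a log2 difference above 1 in size, 3.24% of those tested, 206 of them higher and 216 lower with Y27. Each was placed between MycER, set to 0, and MycER Y27, set to 1. The 206 genes had a median position of -0.10 in the libraries labelled MycER OHT Y27 (quartiles -0.38 and 0.09), against 0.02 in those labelled YAP2S OHT (quartiles -0.15 and 0.30). The 216 genes had a median position of 0.05 in the libraries labelled MycER OHT Y27 (quartiles -0.25 and 0.28), against 0.10 in those labelled YAP2S OHT (quartiles -0.08 and 0.28). In the libraries labelled YAP2S OHT Y27 the medians were 0.84 and 1.0.

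In counts, 22 of the 206 and 34 of the 216 genes lay nearer to MycER Y27 than to MycER in the libraries labelled MycER OHT Y27, against 30 and 26 in those labelled YAP2S OHT. In the libraries labelled YAP2S OHT Y27 it was 178 and 197, and in those labelled MycER OHT 75 and 84 (median positions 0.34 and 0.35). Without OHT it was 93 and 80 in YAP2S Y27 libraries (median positions 0.45 and 0.31) and 20 and 27 in YAP2S libraries. The pair, only 1 group of which is labelled with Y27, had 5 of the 206 genes called higher and 60 lower. Of the 216 genes, 50 were called higher and 32 lower. Over all genes tested, 13.6% were called higher and 15.4% lower, and the 32 of 216 lay near that share. The set planned first held genes that responded in the same direction in both populations. Of its 20 genes higher with Y27, 1 was called higher and 4 lower in the pair, and 13 had a negative difference. Of its 19 genes lower with Y27, 2 were called higher and 9 lower, and 13 had a negative difference.

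**Figure D5:**
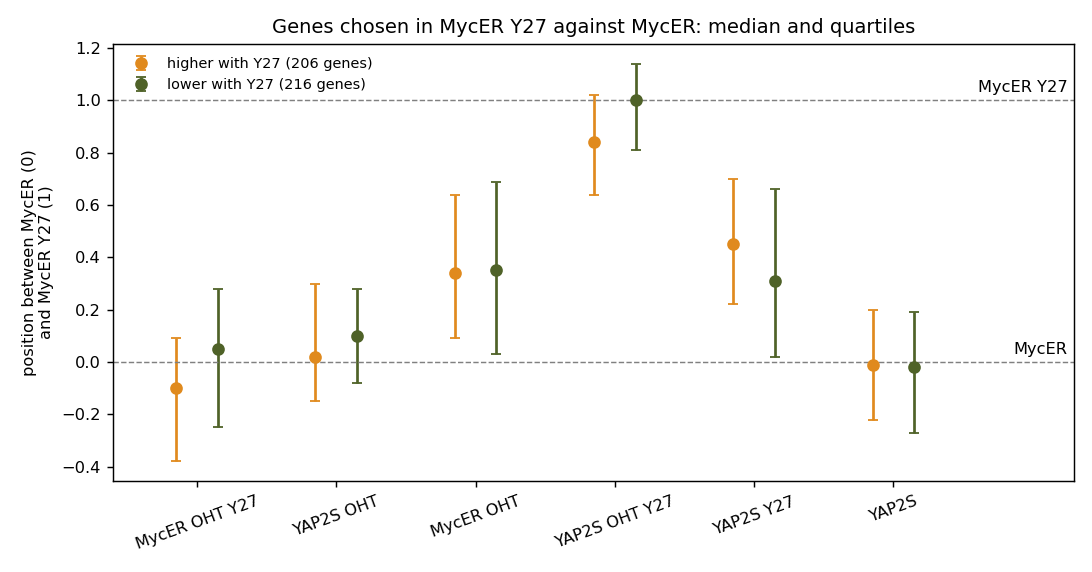
Median and quartiles (bars) of the position of Y27-responsive genes between the MycER mean (0) and the MycER Y27 mean (1), for 206 genes higher and 216 genes lower with Y27 in MycER libraries. The groups labelled MycER OHT Y27 and YAP2S OHT lie near 0, and the group labelled YAP2S OHT Y27 lies at 0.84 and 1.0.

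Single genes with a response to Y27 went both ways. They were chosen for display after their values were seen. Grem1, a secreted antagonist of bone morphogenetic proteins, had 0.504 and 0.233 RPKM in MycER OHT Y27 libraries, against 0.921 and 1.12 RPKM in YAP2S OHT libraries, and it had 18.0 and 15.1 RPKM in MycER Y27 libraries, against 1.38 and 0.776 RPKM in MycER libraries. Fas, the death receptor, had 5.97 and 3.39 RPKM in MycER OHT Y27 libraries, against 6.93 and 6.16 RPKM in YAP2S OHT libraries, and it had 0.971 and 0.544 RPKM in MycER Y27 libraries, against 6.61 and 5.65 RPKM in MycER libraries. Grem1 was thus low and Fas high in both groups of the pair, as in the MycER libraries without Y27. Dhrs3, lower with Y27, differed within the pair. It had 2.54 and 2.15 RPKM in MycER OHT Y27 libraries, against 11.2 and 11.3 RPKM in YAP2S OHT libraries. It had 1.87 and 2.16 RPKM in MycER Y27 libraries, against 7.26 and 12.2 RPKM in MycER libraries. In MycER OHT libraries, labelled without Y27, it had 3.26 and 2.43 RPKM. Of the 19 genes lower with Y27 in both populations, 9 were called lower in the pair, Dhrs3 among them, and 2 higher.

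Of 33 extracellular matrix genes, 14 were called lower and 5 higher, with a median of -0.21, and with voom on recovered reads 14 and 2. Tnc, tenascin C, had 44.0 and 45.9 RPKM in MycER OHT Y27 libraries, against 65.8 and 71.3 RPKM in YAP2S OHT libraries (-0.57 ± 0.06, adjusted p = 0.000213). Loxl2, a lysyl oxidase-like enzyme, had 27.3 and 24.2 RPKM in MycER OHT Y27 libraries, against 46.6 and 44.4 RPKM in YAP2S OHT libraries (-0.56 ± 0.09, adjusted p = 0.00113). Both were also lower in YAP2S than in MycER libraries, by 0.53 and 0.73 on the log2 scale. Col18a1, a basement membrane collagen, and Mmp23, a metalloproteinase, had differences of -1.29 ± 0.18 and -1.66 ± 0.18.

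Of 25 integrins and adhesion receptors, 7 were called higher and 7 lower. Itga11, the integrin chain that binds collagen, had 13.3 and 9.97 RPKM in MycER OHT Y27 libraries, against 30.5 and 30.8 RPKM in YAP2S OHT libraries (-0.93 ± 0.14, adjusted p = 0.000984). Itga4 had 2.29 and 2.07 RPKM in MycER OHT Y27 libraries, against 1.18 and 1.0 RPKM in YAP2S OHT libraries (0.87 ± 0.12, adjusted p = 0.000678). The chains thus differed in opposite directions.

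In the Wnt pathway, Wnt7a left out, 11 of 31 genes were called lower and 2 higher, with a median of -0.29, and with values as deposited 17 and 2. Dkk3, a secreted protein of the Dickkopf family, had 20.8 and 17.8 RPKM in MycER OHT Y27 libraries, against 59.8 and 60.8 RPKM in YAP2S OHT libraries (-1.33 ± 0.07, adjusted p = 4.95e-06). Wnt10b, a ligand, had 4.16 and 4.91 RPKM in MycER OHT Y27 libraries, against 21.5 and 21.4 RPKM in YAP2S OHT libraries (-1.58 ± 0.17, adjusted p = 0.000158). Sfrp2, a secreted modulator of Wnt, had 5.92 and 3.05 RPKM in MycER OHT Y27 libraries, against 22.1 and 24.1 RPKM in YAP2S OHT libraries (-1.74 ± 0.24, adjusted p = 0.0007). In YAP2S against MycER the Wnt list had 6 genes higher and 6 lower.

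Among 30 genes of TGF-beta and BMP signalling, 5 were higher and 10 lower, and with values as deposited 2 and 14. Over all genes tested, 13.6% were called higher and 15.4% lower, and the 5 higher lay near that share. Nog was among the genes higher. Of 11 genes of insulin-like growth factors and their binding proteins, 1 was higher and 2 lower, with a median of 0.08, both counts near the shares over all genes. Igfbp5, which binds insulin-like growth factors, had 1.98 and 1.56 RPKM in MycER OHT Y27 libraries, against 10.9 and 13.3 RPKM in YAP2S OHT libraries (-1.96 ± 0.24, adjusted p = 0.000355).

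Of 25 mesenchymal identity factors, 10 were lower and 1 higher, with a median of -0.19. Msx2, a homeobox factor of bone and limb, had 3.44 and 2.47 RPKM in MycER OHT Y27 libraries, against 10.4 and 10.2 RPKM in YAP2S OHT libraries (-1.17 ± 0.19, adjusted p = 0.00157). Twist2, a bHLH factor of the dermis, had 19.5 and 23.6 RPKM in MycER OHT Y27 libraries, against 43.1 and 43.6 RPKM in YAP2S OHT libraries (-0.70 ± 0.12, adjusted p = 0.00233). Neither gene's groups overlapped. With the GC correction 6 genes of the list were lower and 1 higher.

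Of 6 tested markers of cartilage and bone, 2 were lower and 0 higher, with a median of 0.30, the other 4 lying between 0.27 and 0.41 and not called. The 2 were Col2a1, given before, and Acan. Acan, the cartilage proteoglycan, had 2.95 and 3.07 RPKM in MycER OHT Y27 libraries, against 10.1 and 9.39 RPKM in YAP2S OHT libraries (-1.07 ± 0.14, adjusted p = 0.000448).

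Both groups are labelled with OHT, and the count of Myc targets rests on the scaling. Of 37 tested, 5 were higher and 5 lower with a median of 0.16, while 22 were higher and 0 lower as deposited, 14 and 0 with cyclic loess and 16 and 0 with voom. The 5 and 5 lay near the shares over all genes, 13.6% higher and 15.4% lower. Ncl, the nucleolar protein nucleolin, had 73.1 and 75.6 RPKM in MycER OHT Y27 libraries, against 34.7 and 36.4 RPKM in YAP2S OHT libraries (0.93 ± 0.16, adjusted p = 0.00211). Nme1, a nucleoside diphosphate kinase, was higher by 0.39 ± 0.08 (adjusted p = 0.00445), a call lost without replicate 1 of YAP2S OHT (0.34). Apex1, a DNA repair endonuclease, was higher by 0.62 ± 0.14 (adjusted p = 0.00863), a call lost without replicate 2 of MycER OHT Y27 (0.48) or replicate 1 of YAP2S OHT (0.50). For the cyclin-dependent kinase Cdk4 the difference was -0.25 ± 0.04 (adjusted p = 0.000871) and turned to 0.74 as deposited and 0.59 with voom. The Myc targets Heatr1, Mcm5, Wdr74 and Impdh2 did not pass the test, with differences of 0.20 ± 0.08, 0.22 ± 0.13, -0.15 ± 0.06 and -0.22 ± 0.08, the last of which turned to 0.45 as deposited. Myc had 34.4 and 34.4 RPKM in MycER OHT Y27 libraries, against 36.9 and 33.0 RPKM in YAP2S OHT libraries (0.16 ± 0.13, adjusted p = 0.382). Esr1, whose hormone-binding part MycER borrows, had 1.95 and 1.98 RPKM in MycER OHT Y27 libraries, against 0.902 and 1.11 RPKM in YAP2S OHT libraries (0.82 ± 0.15, adjusted p = 0.0026).

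Of 37 SRF and actin genes, 7 were higher and 5 lower, as deposited 21 and 4, and with voom 15 and 2. The 7 and 5 lay near the shares over all genes, 13.6% higher and 15.4% lower. Xist, the RNA that silences 1 X chromosome in female cells, had 96.6 and 93.6 RPKM in MycER OHT Y27 libraries, against 47.5 and 50.4 RPKM in YAP2S OHT libraries (0.69 ± 0.15, adjusted p = 0.00624). It had 37.4 and 36.7 RPKM in YAP2S libraries, against 67.5 and 60.8 RPKM in MycER libraries, and it was thus higher in the shallower group of both comparisons. The call in the pair was lost without replicate 1 of MycER OHT Y27 (0.61) and with the GC correction (adjusted p = 0.0762).

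Over all genes, the agreement of the pair with the libraries without OHT was uneven. In the pair and in YAP2S Y27 against MycER Y27, 1180 genes were called in both, and 1000 of them (84.7%) had the same sign, 26.5% of the pair's calls and 36.6% of the others. In the pair and in YAP2S against MycER, 922 genes were called in both and 513 (55.6%) had the same sign, 13.6% of the pair's calls and 24.9% of the others. Among the 409 of opposite sign, 307 were higher in the pair and lower in YAP2S. Without replicate 1 of MycER, the library of 1.76 M reads, 86.2% had the same sign, without replicate 1 or 2 of YAP2S 89.6% or 84.5%, and with values as deposited 19.8%. Pearson's r of the log2 differences over 13028 genes was 0.31 and 0.08, as a description.

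A direct test of the difference between the pair and YAP2S against MycER called 2851 genes, 21.9% of those tested, with 1423 higher and 1428 lower, and leaving out any 1 library gave 656 to 1922 and 570 to 2094. Of the 97 genes higher in YAP2S, 5 went the other way in the pair, Dlk2, Hoxc12, Hrct1, Pard6b and Wnt4, with log2 differences of -0.17, -0.56, -0.02, -0.01 and -0.09. Of the 34 lower in YAP2S, Gfra2 and Ly96 did so, at 0.05 and 0.11. None of these 7 was called in the pair. They fall outside the rule for named genes and were chosen after their values were seen.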

How the data were processed

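RNA was sequenced from 16 libraries of 8 labelled groups. The submitters' processing notes name TopHat2 2.0.8, TopHat, SAMtools, featureCounts 1.4.5-p1 and build mm9, with annotation, strand and duplicate handling not given in the sources used here. The authors deposited RPKM for 21671 genes, a unit inferred from the values. Every value above 0 (100%) was, within 0.01 read, a whole multiple of a step common to the gene's 16 values after scaling libraries to each other. These multiples were taken as reads, and their sums gave the depths. No column lacked a sample (0).

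Genes with 1 RPKM or more in at least 2 libraries were kept (13028), set to log2(RPKM + 1), quantile-normalised over the 16 libraries and fitted by group with a mean-variance trend (limma 3.58.1, R 4.3.3). Tests are two-sided, with adjusted p by Benjamini-Hochberg over all genes and a threshold of 0.05. Fold changes of low genes are understated on this scale. The fit was also run on simulated data as a check of the procedure, and the outcome is not given here. With 2 libraries a group, a gene not called was not detected as different at this depth.

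The pair, the 32 gene lists and the tests were chosen with earlier results of these data known, so the calls are no independent support for either reading of the labels. The genes named are the 12 highest and 12 lowest differences as drawn in the plot of named genes, with small structural RNAs, histone genes, predicted genes and Bex1, Wnt7a and Fgfbp1 left out, the members of each list with the smallest p (at most 4), the 10 largest differences between the pair and YAP2S against MycER, and 11 fixed genes. The 11 fixed genes are all reported, while not all of the others are. A few genes that this rule names are not reported here. Transcript GC came from the longest GENCODE M21 transcript of a symbol, for 96.1% of tested genes.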

Additional observations from a re-analysis of the deposited data

Results flagged for a closer look

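The pair, MycER OHT Y27 minus YAP2S OHT, and YAP2S minus MycER differed for 9 genes taken from the largest differences between the 2 comparisons by limma, at a mean of 10 RPKM or more. The difference was 3.72 for Lars2, 3.09 for Zfp488, 2.73 for Naca, 2.54 for Rps15a-ps4, 2.44 for Fgd4, 2.34 for Zfp353-ps, 2.08 for Atn1 and 2.06 for Rps15a-ps6 on the log2 scale, with adjusted p between 0.00212 and 0.0126. All 8 were higher in the pair, and all but Atn1 (-0.64, not passing) were lower in YAP2S than in MycER libraries, that is, higher in the shallower group of each comparison. Naca and the 2 Rps15a pseudogenes have near-identical copies, so their reads are uncertain. For Ier2, an immediate early gene, the difference was -2.15 (adjusted p = 0.00696). Ier2 had 12.1 and 11.3 RPKM in MycER OHT Y27 libraries, against 31.8 and 29.5 RPKM in YAP2S OHT libraries, and 41.0 and 39.0 RPKM in YAP2S libraries, against 9.31 and 21.2 RPKM in MycER libraries, so that it was low in the shallow libraries. With the GC correction the 9 differences kept their direction and an adjusted p between 0.00237 and 0.00723. The part of depth in them was not tested.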

How the results depend on the processing

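With values as deposited the median of all genes moved to -0.22 in the pair and 0.24 in YAP2S against MycER. The pair then had 1044 genes higher and 3886 lower, YAP2S against MycER 3236 higher, YAP2S Y27 against MycER Y27 708 lower, and the difference between comparisons 5644 lower. Same-sign calls fell to 19.8% with YAP2S against MycER, and came to 74.6% with YAP2S Y27 against MycER Y27. Of genes higher in YAP2S, 171 of 240 kept their sign, and of genes lower 10 of 10, 9 of the 10 called. Lists as deposited gave 2 YAP-TEAD targets lower, 2 Hippo genes higher and 3 lower, 13 mitosis genes higher, 4 replication genes higher and 5 lower, 17 Wnt genes lower, 8 matrix genes higher, 22 Myc targets higher and 0 lower, 21 SRF genes higher, 10 FGF genes lower, 2 TGF-beta genes higher, and 0 quiescence, 0 mesenchymal and 0 IGF genes higher. Cyclic loess gave 2 YAP-TEAD targets lower, 14 Myc targets higher and 0 lower, 14 SRF genes higher, 0 quiescence genes higher and 2 IGF genes higher. The GC correction gave 2 Myc targets, 2 SRF genes and 6 mesenchymal genes lower, and 1 FGF, 3 TGF-beta and 2 IGF genes higher. Voom on recovered reads gave 5 YAP-TEAD targets higher and 2 lower, 4 Hippo genes higher and 1 lower, 8 immediate early genes lower, 2 matrix genes higher, 16 Myc targets higher and 0 lower, 15 SRF genes higher and 2 lower, 0 quiescence genes higher and 5 lower, and 0 IGF genes higher. Ctgf reversed as deposited (0.43), Cyr61 as deposited (0.87), with loess (0.21) and with voom on recovered reads (0.49), Impdh2 as deposited (0.45) and with voom (0.35), and Cdk4 as deposited (0.74), with loess (0.0 after rounding) and with voom (0.59). The cause was not tested.

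With only the libraries of a comparison, 2684 genes were higher in the pair, 73 higher and 47 lower in YAP2S against MycER, and 2181 lower in YAP2S Y27 against MycER Y27. Of the calls shared by the pair and YAP2S against MycER, 90.1% then had the same sign, and of those shared with YAP2S Y27 against MycER Y27, 77.4%. Of genes higher in YAP2S, 49 of 51 then kept their sign and 44 were called, and of genes lower 13 of 13 with 13 called. A log2 difference above 0.5 as well left 1068 higher and 1156 lower in the pair, 621 lower in YAP2S against MycER and 755 lower with Y27. A pseudocount of 0.1 gave 149 of 158 and 80 of 99 with 46 called, and voom 192 of 204 with 120 called and 63 of 70.

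Of 20 genes higher with Y27 in both populations, 1 was called higher in the pair and 4 lower. The first count was 0 as deposited, with only the libraries compared, with the log2 limit and with the GC correction, 7 with pseudocount 0.1 and 2 with a filter at 5 RPKM. The second was 12 with pseudocount 0.1, 2 with the filter and 11 with voom. Of 19 genes lower with Y27, 2 were called higher and 9 lower. The first count was 0 as deposited, 1 with loess, with no filter, with the filter at 5 RPKM and with the GC correction, 4 with pseudocount 0.1 and 5 with voom. Chosen in MycER alone, the counts were 5 and 60, and 50 and 32.

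Leaving out 1 library at a time gave 613 to 1092 higher and 883 to 1430 lower in the pair, 133 to 1770 and 93 to 1749 in YAP2S against MycER, 606 to 1238 and 375 to 1099 in YAP2S Y27 against MycER Y27, and 656 to 1922 and 570 to 2094 for the difference. Same-sign calls came to 44.8% to 89.6% with YAP2S against MycER, and to 72.3% to 93.7% with YAP2S Y27 against MycER Y27. The Y27 counts were 0 to 1, 0 to 3, 0 to 1 and 8 to 9. A lone library was assumed to vary like the other groups.

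Deviations of same-numbered libraries correlated at -0.305 to 0.419 over 28 pairs of groups, some above 0.1 and others below -0.1, and at -0.003 within the pair. Nothing in the labels ties equal numbers together, and they were not taken as pairs. The replicate block gave 1666 higher and 1887 lower in the pair, and 1 gene lower with Y27 called higher. Of 943 values of 79 named genes with all libraries kept, 904 kept direction and call, 21 lost the call, 9 gained it and 9 reversed. Of 316 with 1 library left out, 23 lost the call. The GC correction, voom for the lists and the genes chosen in MycER alone were added after seeing the data.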
